A study of Mus musculus with 16 samples.

Results

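Transcripts of the core and variant histone genes were measured in mouse sperm RNA. The genes were every row of the count table whose symbol begins with Hist1h, Hist2h, Hist3h, Hist4h, H2af or H3f3, except the testis-specific Hist1h1t and Hist1h2ba. This gave 78 of 24062 gene rows: 66 clustered genes, which lie in groups on chromosomes 13, 3 and 11 with 1 gene on chromosome 6, and 12 replacement variant genes, of which H2afj lies 3828 bases from the chromosome 6 clustered gene Hist4h4. The rule goes by gene symbol, and no other gene was left out for being known from testis. Symbols were matched to GENCODE M21 on GRCm38, the assembly that mm10 denotes, and all 78 matched; Hist3h2bb-ps and H2afy3 are annotated there as processed pseudogenes.

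Sequencing covered sperm of 8 males fed a high-fat diet (HFD) and of 8 males fed its matched control diet (CD). All males began the diet at 3 weeks of age and ate it for 9 weeks, with no strain named in the labels, before motile sperm were collected. RNA was extracted from bulk sperm, 2 ng of it was amplified to double-stranded cDNA, and 250 ng of cDNA entered each library. The comparison asks whether histone transcripts in these sperm preparations differed between diets.

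Histones are the proteins around which DNA is wound in nucleosomes. Clustered, or replication-dependent, genes supply the bulk of H2A, H2B, H3, H4 and the linker H1 in S phase, and their mRNAs typically end in a conserved stem-loop in place of a poly(A) tail. Some of them can also give longer, polyadenylated transcripts in cells that have stopped dividing. Replacement variants such as H3.3 and H2A.Z are made outside S phase from spliced, polyadenylated mRNAs and are put into chromatin by dedicated chaperones. In late spermatids most histones are exchanged for transition proteins and then protamines, and a small part of the sperm genome keeps nucleosomes.

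The histone 3′ stem-loop was looked for after the stop codon, on the transcript strand, as a 6-base arm that begins with GG and ends with T, a loop of 4 bases with T first and again before its last base, and a closing arm that pairs with all 6 bases of the opening one. It was present in 45 of the 66 clustered genes and in the replacement gene H2afx. In 14 clustered genes no annotated 3′ UTR was long enough to hold it, so the search could not find it there. Another 6 had a long enough 3′ UTR and no match, and the pseudogene Hist3h2bb-ps had no annotated 3′ UTR. Over all protein-coding genes, the histone genes included, the stem-loop was present in 60 of 21901, or 0.274%. The arms read GGCTCT with AGAGCC in 33 of the histone genes with a match, GGCCCT with AGGGCC in 11 and GGTCCT with AGGACC in 2. The sequences below, from GENCODE M21 transcripts, are those of the histone genes with a match that also had enough reads for a test of diet, because they show which of these genes carry the replication-dependent 3′ signal. Each is 26 bases, 5′ to 3′, and capitals mark the stem.

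Hist1h1c: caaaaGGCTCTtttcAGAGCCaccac
Hist1h1e: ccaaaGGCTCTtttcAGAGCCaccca
Hist1h2be: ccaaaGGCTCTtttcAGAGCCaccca
Hist1h2bp: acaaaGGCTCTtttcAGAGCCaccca
Hist1h4d: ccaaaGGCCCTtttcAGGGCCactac
Hist3h2a: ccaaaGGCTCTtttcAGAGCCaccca
H2afx: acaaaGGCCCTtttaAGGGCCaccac

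The stem-loop is not the annotated end of most of these transcripts. GENCODE extends the longest transcript beyond it by 840 bases in Hist1h1c, 1153 in Hist1h1e, 1861 in Hist1h2be, 770 in Hist1h4d, 1643 in Hist3h2a and 822 in H2afx. Hist1h2bp, with 38 bases after the stem-loop, is the exception among the 7. Its matched transcript has a 3′ UTR of 81 bases, and another of its annotated transcripts has one of 150 bases. No match was found in the other 2 clustered genes that were tested, Hist1h2bc and Hist2h2be, and no match says only that these letters are not in the annotated 3′ UTR.

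Values are raw read counts per gene, given below as CPM, counts per 1000000 gene counts of a library. Totals over genes were 1882555 (HFD 4) to 5153818 (HFD 2) counts for HFD and 3172721 (CD 8) to 7783981 (CD 2) counts for CD. Between 15.8% and 30.7% of a library's reads did not align uniquely and entered no gene, which bears on a family of near-identical copies. HFD 4 and HFD 8 stood apart from the other 14 libraries. Reads in no annotated feature were 76.1% and 75.0% of their columns, against 58.0% to 67.9% elsewhere, reads in genes 8.02% and 9.16%, against 10.3% to 20.1%, and reads not uniquely aligned 15.9% and 15.8%, against 18.6% to 30.7%. Their 20 late spermatid markers, protamine and flagellar genes among them, summed to 20955 and 53422 CPM, against 2200 to 12423 CPM elsewhere, with all 20 detected in every library. Their 18 meiotic markers summed to 3509 and 2936 CPM, against 188 to 1012 CPM elsewhere, and Tex11, Tex12, Dmc1 and Spo11 were at 0 in some libraries. Their 20 epididymal epithelium markers summed to 13409 and 11133 CPM, against 31922 to 85467 CPM elsewhere, with Lcn8, Lcn9, Adam28 and Rnase10 at 0 in some libraries. For the 14 leukocyte markers the sums were 1049 and 1609 CPM, against 295 to 1051 CPM elsewhere, with Cd79a at 0 in some libraries. The 18 S phase and proliferation markers summed to 376 and 471 CPM, against 185 to 374 CPM elsewhere, with Mcm5, Mcm6, Tyms, Cdk1, Ccne1 and E2f1 at 0 in some libraries. The diet differences of histone genes are therefore also given without HFD 4 and HFD 8, and the part of these other transcripts and of these read shares in them was not tested. In bulk RNA, fewer cells of a type and less RNA per cell cannot be told apart. Epididymal epithelium and leukocyte markers had reads in every library, so the counts do not say which cells the histone reads came from.

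Replacement variants held most histone reads. Their 12 genes took 45847 counts over the 16 libraries, against 13757 for the 66 clustered genes. The classes are not equally countable. Replacement variants had a median of 1704.5 exon bases, with 92.6% of 50-base transcript windows found in no other gene. Clustered genes had medians of 536.5 bases and 50.4%. Reads that did not align uniquely entered no gene, so these totals do not compare the transcript amounts of the classes. Replacement variants summed to 743 CPM ± 129.9 in HFD libraries and 745 ± 138 in CD libraries (SD, n = 8 each), with ranges of 586.5 to 957 in HFD and 599 to 996 in CD. Clustered genes summed to 205 CPM ± 65.4 in HFD libraries and 227 ± 50.9 in CD libraries (SD, n = 8 each), with ranges of 123 to 308 in HFD and 173 to 337 in CD. Both sums overlapped between diets. The mean log2 difference, HFD minus CD, was -0.19 for clustered genes and -0.0037 for replacement variants, against standard deviations between libraries of a diet of 0.40 and 0.25.

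**Figure D1:**
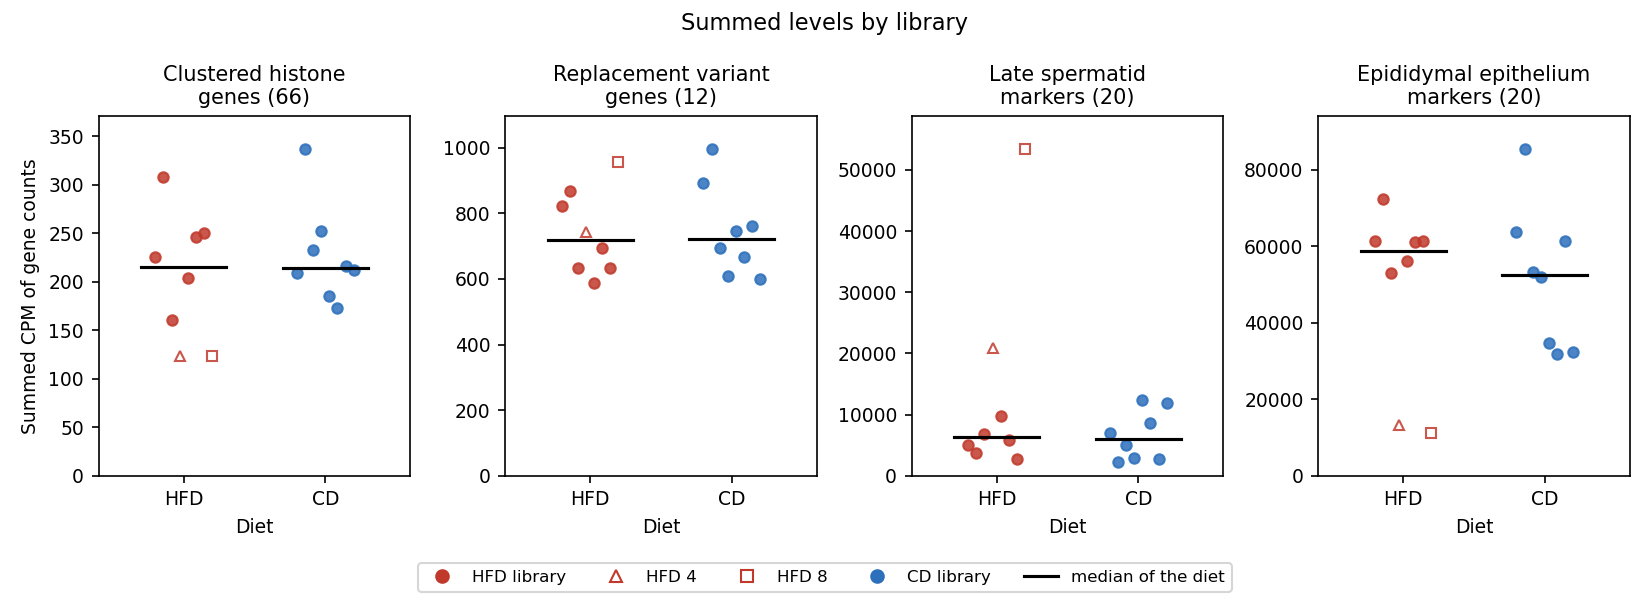
Summed CPM in each library, HFD left of CD, for the clustered histone genes, the replacement variants and 2 marker lists, with horizontal lines at the diet medians. HFD 4 (triangle) and HFD 8 (square) are the lowest libraries for clustered histone genes, with 124 and 123 CPM, and for epididymal markers, but lie inside the range of the others for replacement variants.

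The 2 lowest clustered sums were those of HFD 4 and HFD 8, with 124 and 123 CPM, and the other 14 libraries lay between 160.4 and 337 CPM. The same libraries had the highest shares of reads in no feature, as given above, and the part of that in the low sums was not tested. Their replacement sums, 743 and 957 CPM, lay inside the range of the others, 586.5 to 996 CPM. In HFD 8, H2afb1 alone gave 294.5 of the 957 CPM and 27.3% of all histone counts. This gene therefore bears on both the replacement sum and the clustered share of HFD 8. Clustered genes accordingly took 14.3% of histone counts in HFD 4 (95% Wilson interval 12.7 to 16.1) and 11.4% in HFD 8 (10.4 to 12.5). In the other libraries that share ran from 20.2% to 28.3% in HFD and from 18.99% to 29.3% in CD. These intervals cover counting error only, since amplified reads without molecular identifiers are not independent molecules. The mean share differed by -1.70 percentage points between HFD and CD, less than the 5.02 points of SD within a diet. Without HFD 4 and HFD 8 the difference was 1.26 points, and the log2 differences of the sums were 0.03 for clustered genes and -0.07 for replacement variants.

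The test of diet was run over all genes that passed an expression filter, and 17 of the 78 histone genes did: 9 replacement variants and 8 clustered genes. In edgeR's quasi-likelihood test with Benjamini-Hochberg adjustment and a threshold of 0.05, 0 of the 17 were called, beside 0 of 13149 genes, or 0.0%. At an unadjusted p under 0.05 the test gave 1 histone gene, H2afy2, beside 1482 genes or 11.3%, so the histone count was not above the background. H2afy2 was higher in HFD, as were 1338 genes or 10.2%. DESeq2 called 0 histone genes beside 1 gene or 0.00761%, with 3 histone genes at an unadjusted p under 0.05 beside 13.8%. The limma-voom test with quality weights gave 1 beside 3.8%. Without HFD 4 and HFD 8, edgeR called 0 genes, and 0 histone genes had an unadjusted p under 0.05, beside 292 genes or 2.17%.

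**Figure D2:**
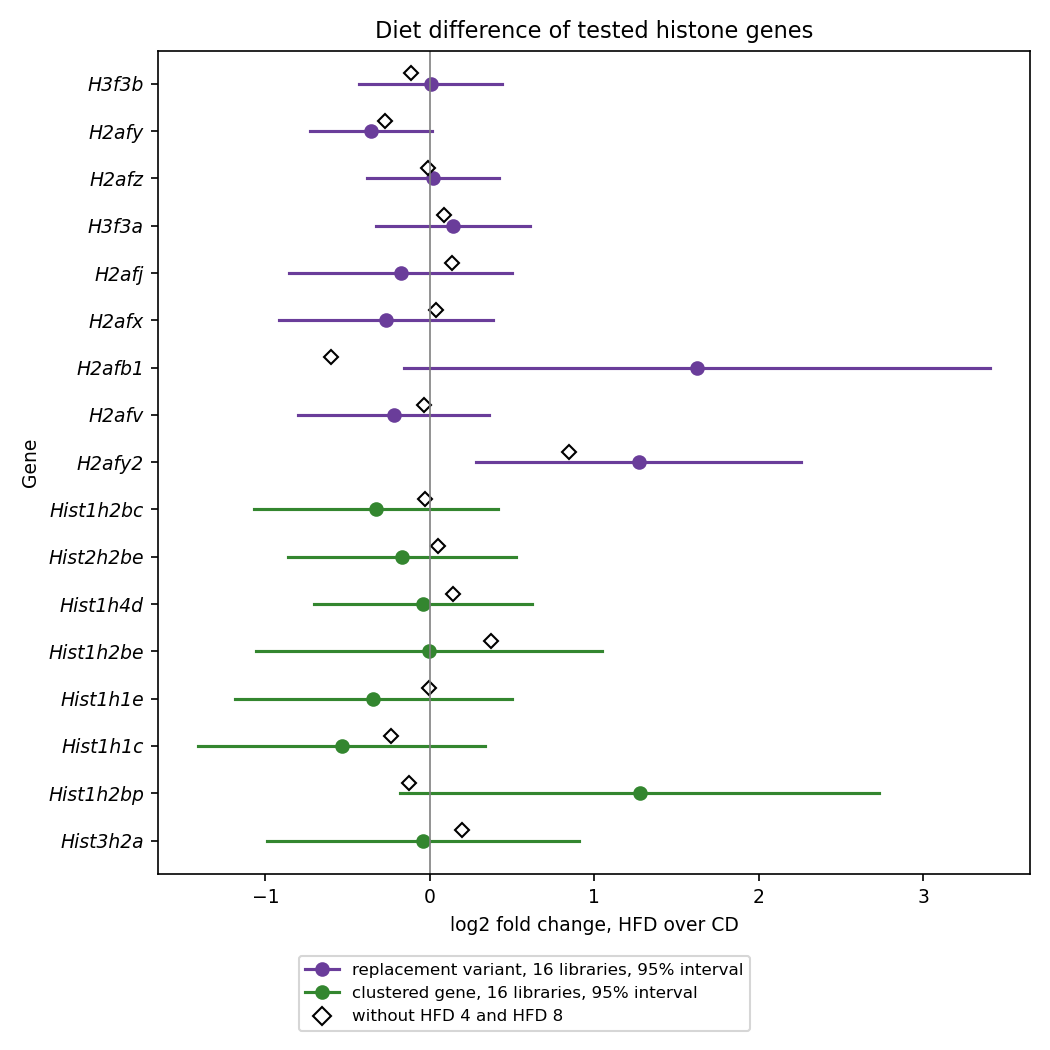
The log2 fold change of each tested histone gene, HFD over CD, from edgeR over 16 libraries with its 95% interval (filled circles), and the same without HFD 4 and HFD 8 (open diamonds). The interval of H2afy2, from 0.28 to 2.26, is the sole one that excludes 0 before adjustment, and the diamonds of H2afb1 and Hist1h2bp lie farthest from their circles, on the other side of 0.

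The 8 clustered genes had a median log2 fold change of -0.11, with 7 of 8 below 0, beside 50.4% of all tested genes below 0 and a median of -0.0042. The 9 replacement variants had a median of 0.0048, with 5 of 9 above 0, beside 49.6% of all tested genes. Without HFD 4 and HFD 8 the medians were 0.02, with 4 of 8 clustered genes above 0, and -0.0095. Under limma-voom the clustered median was 0.12, with 6 of 8 above 0, so the direction of the clustered genes was not steady. No p is given for either list.

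Among replacement variants, H3f3b had the highest mean CPM, followed by H2afy, H2afz and H3f3a. H3f3b (chr11:116021912-116027962, minus strand) and H3f3a (chr1:180800832-180813943, minus strand) encode the same protein, the H3 variant placed at active genes and telomeres. Their coding sequences are nevertheless distinct, differing at 95 of 408 bases, so that their reads can be told apart. The first 60 coding bases from GENCODE are printed to show this, with capitals in H3f3a where it differs from H3f3b.

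H3f3b: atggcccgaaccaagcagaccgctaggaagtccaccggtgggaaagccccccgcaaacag
H3f3a: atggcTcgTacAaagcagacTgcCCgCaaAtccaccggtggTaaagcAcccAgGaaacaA

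H3f3b alone held 33.8% of all histone counts. Its lowest, median and highest levels were 214, 292 and 469.6 CPM in HFD libraries and 235, 309 and 509.8 CPM in CD libraries. The diets overlapped almost fully, and the HFD maximum was HFD 4, where H3f3b made up 54.2% of histone counts. Its log2 fold change was 0.0048 ± 0.21 (SE; adjusted p = 0.995, edgeR), with a 95% interval of -0.43 to 0.44, and -0.12 without HFD 4 and HFD 8. H3f3a had 56.7, 98.6 and 128 CPM in HFD libraries and 55.8, 80.1 and 143 CPM in CD libraries. H3f3a had a log2 fold change of 0.14 ± 0.22 (adjusted p = 0.836, edgeR), and 0.09 without both libraries. An antisense gene, H3f3aos, overlaps H3f3a on the other strand, and the strand setting of the counting is not given in the sources used here.

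H2A.Z is the variant found around transcription start sites, and it is encoded by H2afz (chr3:137864487-137866922, plus strand) and H2afv (chr11:6427229-6444443, minus strand). H2afz had 59.0, 87.7 and 132 CPM in HFD libraries, lowest in HFD 4 and highest in HFD 8, and 79.25, 83.6 and 121.5 CPM in CD libraries. So the libraries with high germ cell markers lay at opposite ends for H2afz. Its log2 fold change was 0.02 ± 0.19 (adjusted p = 0.978, edgeR), and -0.0095 without both. H2afv had 7.44, 19.6 and 29.7 CPM in HFD libraries and 12.5, 23.6 and 38.9 CPM in CD libraries, with HFD 4 the sole HFD library below all CD libraries. The H2afv log2 fold change was -0.22 ± 0.28 (adjusted p = 0.789, edgeR), and -0.04 without both.

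The macroH2A variants carry a large globular domain beside the histone fold and are known from silent chromatin, including the inactive X chromosome. H2afy (chr13:56073619-56136361, minus strand), which encodes macroH2A1, had 48.9, 89.6 and 114 CPM in HFD libraries and 87.6, 114 and 155 CPM in CD libraries. No HFD library exceeded the CD median, and 2 HFD libraries, HFD 4 and HFD 5, lay below every CD library. For H2afy, edgeR gave a log2 fold change of -0.36 ± 0.18 with a 95% interval of -0.73 to 0.02 (unadjusted p = 0.0596, adjusted p = 0.460, edgeR), and -0.27 without HFD 4 and HFD 8.

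H2afy2 (chr10:61738665-61784147, minus strand) encodes macroH2A2 and was far scarcer than H2afy, with 2.08, 7.05 and 13.7 CPM in HFD libraries and 0.836, 3.70 and 5.52 CPM in CD libraries. HFD 8, HFD 4, HFD 7 and HFD 5 lay above every CD library and the other 4 HFD libraries lay among them. Its log2 fold change, 1.27 ± 0.47 with an interval of 0.28 to 2.26, had the smallest p of the 17 genes (unadjusted p = 0.0146), but the adjusted p was 0.434 in edgeR. Without HFD 4 and HFD 8 the log2 fold change was 0.84, with an adjusted p of 0.9997. The gene overlaps Aifm2 on the other strand. The 300 counts of H2afy2 over 16 libraries also limit the precision of its values.

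H2A.X, the variant phosphorylated at DNA breaks and on the sex chromosomes in meiosis, is encoded by the intronless H2afx (chr9:44334694-44336077, plus strand), whose stem-loop is printed above. H2afx had 6.91, 32.9 and 46.3 CPM in HFD libraries and 26.1, 36.0 and 42.2 CPM in CD libraries. HFD 4 and HFD 8, with 6.91 and 9.15 CPM, were well below the other 14 libraries, which held 25.2 to 46.3 CPM. The log2 fold change was -0.27 ± 0.31 (adjusted p = 0.777, edgeR), and 0.04 without both. H2afj (chr6:136808244-136810074, plus strand), which encodes H2A.J, showed the same 2 low libraries, with 7.97 and 13.4 CPM against 32.2 to 66.8 CPM elsewhere. Its lowest, median and highest levels were 7.97, 43.2 and 66.8 CPM in HFD libraries and 32.2, 46.8 and 55.1 CPM in CD libraries. For H2afj the log2 fold change was -0.18 ± 0.32 (adjusted p = 0.859, edgeR), and 0.14 without both.

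The H2afb genes on the X chromosome encode short H2A variants known from testis. H2afb1 (chrX:117014757-117015104, plus strand, 348 bases in 1 exon) had 4.95, 8.999 and 294.5 CPM in HFD libraries and 4.74, 16.8 and 28.7 CPM in CD libraries. HFD 8 alone held 901 of the gene's 1604 counts, while HFD 4, the other library high in germ cell markers, had 8.50 CPM, inside the range of the rest. For H2afb1, edgeR gave a log2 fold change of 1.63 ± 0.85 (unadjusted p = 0.0711, adjusted p = 0.480), which turned to -0.62 without HFD 8 and to -0.60 without HFD 4 and HFD 8. Without HFD 8, the mean was 10.03 CPM ± 4.87 in HFD (SD, n = 7) and 15.9 ± 10.8 in CD (SD, n = 8). H2afb3 had 68 counts in 9 libraries, 20 of them in HFD 4, and H2afb2 had 0 counts in all 16. A pooled count of 0 allows up to 0.0504 CPM, taking 3 counts of the 59513363 gene counts as the limit. Of 50-base windows of H2afb1 transcripts, 56.2% occur in no other gene, and those that are shared are in H2afb2 and H2afb3, so some reads cannot be assigned among the copies. The third replacement row that did not pass the filter, the macroH2A pseudogene H2afy3, had 101 counts in 15 libraries, with 23 in HFD 4 and 20 in HFD 8 and at most 10 in any other.

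**Figure D3:**
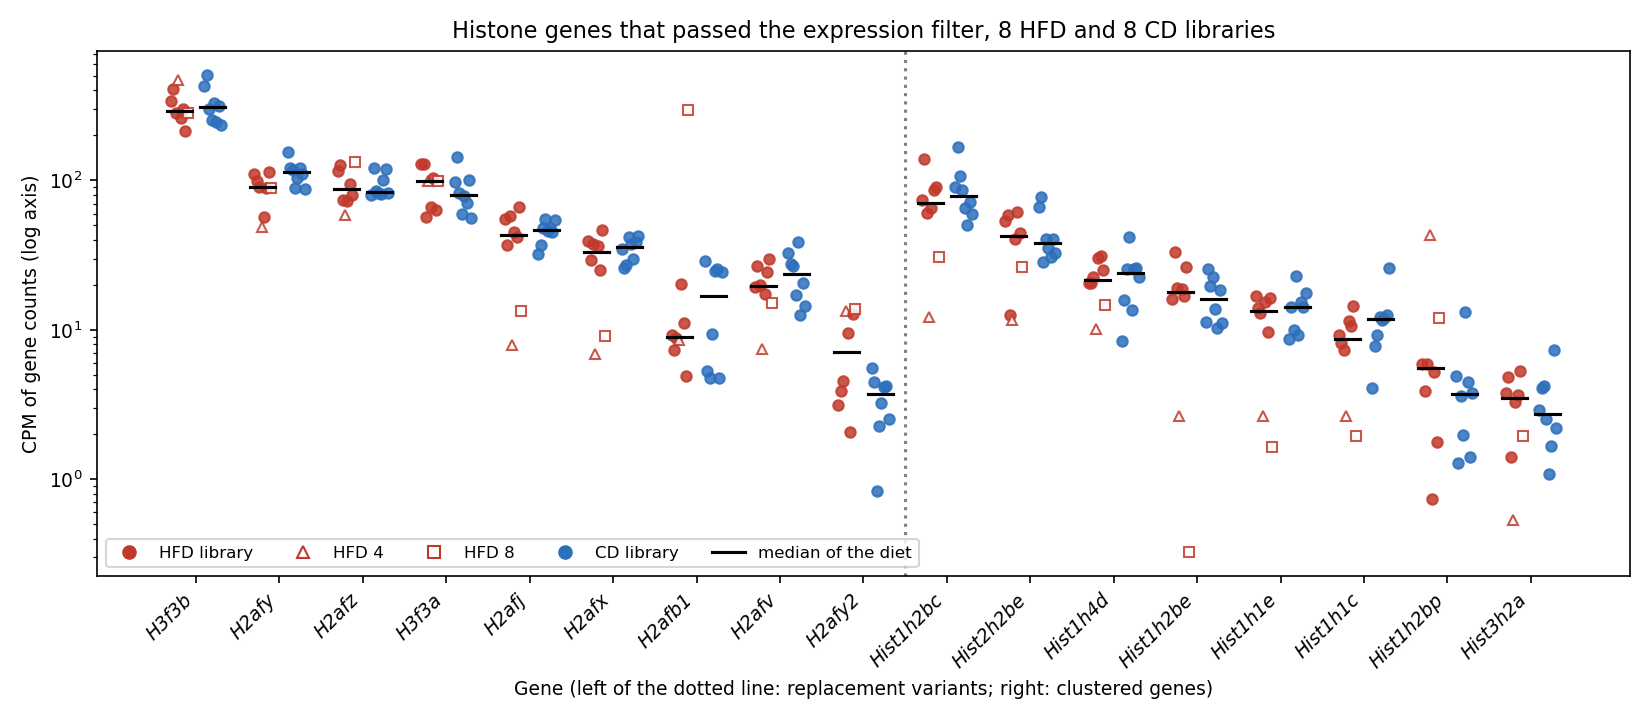
CPM on a log axis of each histone gene that passed the filter, with HFD libraries left of CD libraries, HFD 4 as a triangle, HFD 8 as a square and horizontal lines at the diet medians. HFD 4 and HFD 8 sit below all other libraries for H2afj, H2afx, Hist1h2bc, Hist1h2be, Hist1h1c and Hist1h1e, and single high points mark H2afb1 in HFD 8 (294.5 CPM) and Hist1h2bp in HFD 4 (43.0 CPM).

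Among clustered genes, reads were concentrated in H2B. H2B genes took 70.8% of clustered counts, H4 genes 13.5%, H1 genes 11.05%, H2A genes 3.31% and H3 genes 1.36%. The 4 genes with most reads held 75.6% of clustered counts, and the 8 that passed the filter 89.5%. As background, nucleosomes hold the core histones in equal parts. The histone types are not equally countable, because reads that did not align uniquely entered no gene. The median share of transcript windows found in no other gene was 27.0% for clustered H2A genes and 38.0% for H3. It was 53.1% for H2B, 60.5% for H4 and 97.7% for H1. The shares of clustered counts therefore do not compare the transcript amounts of the types. Per kilobase of annotated exon, Hist1h2bc, with a mean of 67.8 CPM per kb, stood after H3f3b with 108.7 and H2afb1 with 88.4. The H2afb1 value rests on HFD 8. Without that library H2afb1 had 37.9 CPM per kb, below 70.6 for Hist1h2bc and 51.5 for H2afz. Hist1h4d had 19.4, Hist2h2be 15.8, Hist1h2bp 10.02, Hist1h1e 6.52, Hist1h1c 6.46, Hist1h2be 3.73 and Hist3h2a 1.48 CPM per kb. The largest value of a clustered H3 gene was 1.82 CPM per kb, in Hist1h3a, which did not pass the filter.

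The H1 linker histones bind the DNA between nucleosomes. Hist1h1c (chr13:23738808-23740367, plus strand), which encodes H1.2, had 1.96, 8.70 and 14.5 CPM in HFD libraries and 4.06, 11.8 and 25.9 CPM in CD libraries. HFD 4 and HFD 8, with 2.66 and 1.96 CPM, were the 2 lowest of the 16. The log2 fold change was -0.54 ± 0.42 (adjusted p = 0.667, edgeR), and -0.24 without both. Hist1h1e (chr13:23620629-23622558, minus strand), which encodes H1.4, had 1.63, 13.5 and 16.8 CPM in HFD libraries and 8.71, 14.2 and 22.9 CPM in CD libraries. Again HFD 4 and HFD 8, with 2.66 and 1.63 CPM, lay outside the 8.71 to 22.9 CPM of the rest. Hist1h1e had a log2 fold change of -0.34 ± 0.40 (adjusted p = 0.778, edgeR), and -0.00455 without both. Hist1h1d, the H1.3 gene, had 102 counts and did not pass the filter. It went the other way in HFD 4 alone, with 28 counts, the highest of the 16. HFD 8 had 0, and the other 15 libraries each had a count. Hist1h1a and Hist1h1b had 22 and 24 counts in all.

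Of the 18 clustered H2B genes, Hist1h2bc (chr13:23684199-23692908, plus strand) took 38.5% of all clustered counts and Hist2h2be (chr3:96221119-96223738, plus strand) 19.9%. Both encode core H2B. Hist1h2bc had 12.2, 70.1 and 138 CPM in HFD libraries and 50.01, 78.8 and 168 CPM in CD libraries. HFD 4 and HFD 8, with 12.2 and 30.7 CPM, were below the 50.01 to 168 CPM of the others. The Hist1h2bc log2 fold change was -0.33 ± 0.35 (adjusted p = 0.763, edgeR), and -0.03 without both. Hist2h2be had 11.7, 42.5 and 61.1 CPM in HFD libraries and 28.4, 38.0 and 77.3 CPM in CD libraries. Here HFD 3, with 12.6 CPM, was as low as HFD 4, so the low values were not those of HFD 4 and HFD 8 alone. For Hist2h2be the log2 fold change was -0.17 ± 0.33 (adjusted p = 0.868, edgeR), and 0.05 without both.

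Hist1h2be (chr13:23583670-23621124, minus strand) had 0.327, 17.8 and 33.2 CPM in HFD libraries and 10.3, 16.1 and 25.6 CPM in CD libraries. HFD 8 and HFD 4, with 0.327 and 2.66 CPM, were nearly without it, while 2 other HFD libraries exceeded every CD library. For Hist1h2be, edgeR gave a log2 fold change of -0.01 ± 0.50 (adjusted p = 0.997), and 0.37 without both. Hist1h2be overlaps Hist1h1e on the same strand in GENCODE, and reads in the overlap cannot be assigned to one of them. Hist1h2bp (chr13:21787461-21789213, plus strand) was high where Hist1h2be was low, with 43.0 CPM in HFD 4 and 12.1 CPM in HFD 8. Its lowest, median and highest levels were 0.735, 5.54 and 43.0 CPM in HFD libraries and 1.29, 3.70 and 13.2 CPM in CD libraries. Hist1h2bp had a log2 fold change of 1.27 ± 0.69 (unadjusted p = 0.0825, adjusted p = 0.5002, edgeR), 0.29 without HFD 4 and -0.13 without HFD 4 and HFD 8.

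Clustered H4 and H2A each had 1 gene that passed the filter. Hist1h4d (chr13:23581598-23582735, plus strand) had 10.1, 21.5 and 31.2 CPM in HFD libraries and 8.42, 24.0 and 41.5 CPM in CD libraries, with the lowest of all in CD 1. Its log2 fold change was -0.04 ± 0.32 (adjusted p = 0.972, edgeR), and 0.14 without HFD 4 and HFD 8. Hist3h2a (chr11:58954685-58956830, plus strand), an H2A gene that lies over part of Trim17 on the same strand, had 0.531, 3.47 and 5.30 CPM in HFD libraries and 1.08, 2.72 and 7.29 CPM in CD libraries. The Hist3h2a log2 fold change was -0.04 ± 0.45 (adjusted p = 0.979, edgeR), and 0.20 without both. Of the 12 clustered H3 genes none passed. The largest of these H3 genes were Hist1h3e with 61 counts and Hist1h3a with 49, of which 21 were in HFD 8. Hist1h2aa, an H2A gene with 37 counts, had 25 of them in HFD 8 and 0 in HFD 4. In HFD 8 this gene gave 8.17 of the 14.1 CPM summed over clustered H2A genes.

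Near-identical copies set a limit on what these counts say of single clustered genes. The next sequences, the first 60 coding bases of 3 groups from GENCODE, show how little separates some copies. Capitals mark bases that differ from the first gene of each group.

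Hist1h2ao: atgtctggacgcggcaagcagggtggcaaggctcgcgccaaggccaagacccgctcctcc
Hist1h2ap: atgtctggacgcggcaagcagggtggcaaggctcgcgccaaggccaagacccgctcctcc
Hist1h2an: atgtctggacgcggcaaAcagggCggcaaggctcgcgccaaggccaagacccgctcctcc
Hist1h2bc: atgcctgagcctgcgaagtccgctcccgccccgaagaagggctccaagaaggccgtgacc
Hist1h2bj: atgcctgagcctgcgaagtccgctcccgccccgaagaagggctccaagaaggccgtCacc
Hist1h2be: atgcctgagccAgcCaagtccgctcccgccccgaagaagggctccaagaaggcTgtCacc
Hist1h4d: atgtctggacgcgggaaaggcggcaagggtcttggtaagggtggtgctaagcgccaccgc
Hist1h4m: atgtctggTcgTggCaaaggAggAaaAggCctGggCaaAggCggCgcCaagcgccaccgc
Hist1h4n: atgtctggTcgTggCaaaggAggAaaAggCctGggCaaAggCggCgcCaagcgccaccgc

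The coding sequences of the H2A genes Hist1h2ao and Hist1h2ap have 0 differences in 390 bases, and both genes had 0 counts in all libraries, as did Hist1h2an. Among H2B genes, Hist1h2bj differs from Hist1h2bc at 4 of 378 coding bases and had 7 counts, against 5294 for Hist1h2bc. Hist1h2be differs from Hist1h2bc at 6 of 378 bases and Hist2h2be at 48, and all 50-base windows of Hist2h2be occur in no other gene. Hist1h4m and Hist1h4n share the 60 bases shown and had 1 and 4 counts, while Hist1h4i, with the same 60 bases, had 78. Hist1h4d, with 1302 counts, is less close. Hist1h4m and Hist1h4n each differ from it at 13 of the 60 bases shown and at 20 of 309 bases in all.

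Over all 66 clustered genes, 11 had 0 counts in every library and 29 had fewer than 10 counts in all. The 16 genes with under 20% of 50-base windows found in no other gene held 112 counts together, with a median of 0.5, and 8 of them were at 0. The 13 genes with at least 80% of such windows held 6013 counts, with a median of 37, and 0 of them were at 0. The 37 genes in between held 7632 counts with a median of 19. A count of 0 in a gene with few distinct windows is not by itself a measure of its transcript. H2afb2 is different, with 92.0% of its windows found in no other gene and 0 counts.

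Clustered genes with a long annotated 3′ UTR held most clustered reads, although reads were present in 13 of 16 genes with a 3′ UTR over 700 bases and in 42 of the 50 others. The 16 clustered genes with an annotated 3′ UTR over 700 bases held 88.7% of clustered counts and 7 of the 8 that passed the filter. Hist1h2bc, with a 3′ UTR of 742 bases, lies just over this limit, and with it counted among the others the share was 50.2%, or 81.6% with its counts left out altogether. The other 50 clustered genes held 11.3%, with Hist1h2bp the single one that passed. Among genes with a stem-loop match, the 22 with more than 100 annotated bases after it held 4496 counts, with a median of 36.5, and the 23 with at most 100 held 836, with a median of 7. A long 3′ UTR makes a gene longer and more distinct as well, with a median of 82.9% of windows found in no other gene in the first group of 16 and 43.7% in the group of 50, so length, distinctness and the kind of transcript end cannot be told apart here. Per kilobase the medians were 0.501 and 0.290 CPM per kb.

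**Figure D4:**
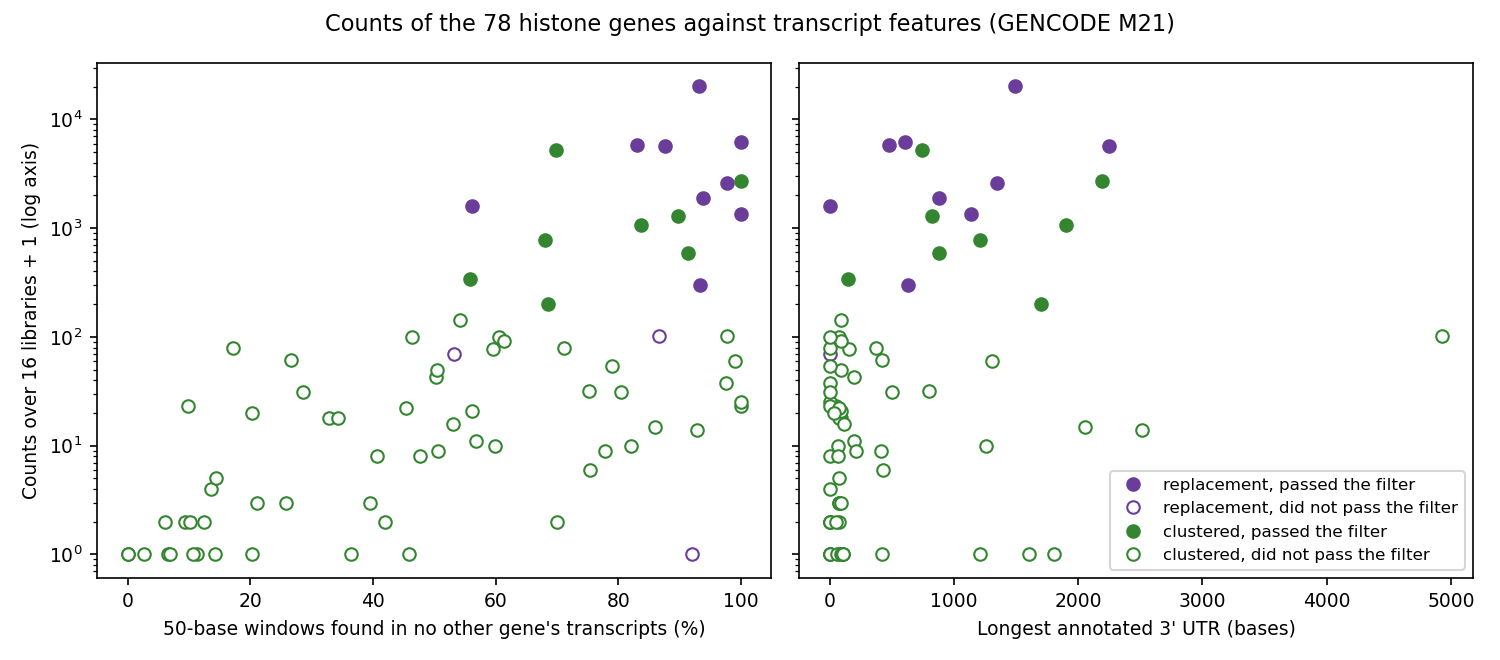
Counts over 16 libraries plus 1, on a log axis, of the histone genes against the percentage of 50-base transcript windows found in no other gene (left) and the longest annotated 3′ UTR (right), the latter without the 2 pseudogenes, for replacement variants and clustered genes, filled where the gene passed the filter. Clustered genes at 0 counts lie at the left of the first panel, none above 45.9% of windows, and 7 of the 8 filled clustered points in the second panel lie beyond 700 bases.

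Other histone pathway genes were read from 4 lists. None was called in either direction by edgeR, among 4 of 9 tested genes of other testis and linker histones, 13 of 15 of histone mRNA processing, 14 of 15 of H3-H4 chaperones and 18 of 21 of H2A-H2B chaperones and exchange. At an unadjusted p under 0.05 the counts were 1, 0, 2 and 1 in the order of these lists, beside 11.3% of all tested genes, and DESeq2 and limma-voom called 0 as well. Their median log2 fold changes were 0.72, -0.03, -0.05 and -0.09, and 0.00034, -0.0072, -0.03 and -0.09 without HFD 4 and HFD 8. Hils1, a spermatid linker histone, had 21.6, 72.8 and 636 CPM in HFD libraries and 17.2, 40.8 and 139 CPM in CD libraries, with HFD 4 and HFD 8 alone above the CD range at 499 and 636 CPM. For Hils1 the log2 fold change was 1.92 ± 0.68 (adjusted p = 0.434, edgeR), and 0.17 without both. H1f0, a linker histone of non-dividing cells, was low in the same libraries, with 31.9 and 15.03 CPM against 52.8 to 92.6 CPM elsewhere, and a log2 fold change of -0.41 ± 0.25 (adjusted p = 0.568, edgeR), and -0.17 without both.

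Nasp, an H3-H4 and H1 chaperone with a testis form, reached 1708 and 1358 CPM in HFD 4 and HFD 8, against 101 to 486 CPM elsewhere. Its log2 fold change was 1.17 ± 0.55 (unadjusted p = 0.0482, adjusted p = 0.442, edgeR), and -0.18 without both. Atrx, which with Daxx deposits H3.3, had 139 and 204 CPM in HFD 4 and HFD 8, against 355 to 552 CPM elsewhere, and a log2 fold change of -0.27 ± 0.22 (adjusted p = 0.698, edgeR), and -0.03 without both. In histone mRNA processing, the cleavage factor gene Cstf2 had a log2 fold change of -0.24 ± 0.24 (adjusted p = 0.737, edgeR), which turned to 0.0033 without both. The cap-binding gene Ncbp1 had 171 and 189 CPM in HFD 4 and HFD 8, against 46.6 to 95.6 CPM elsewhere, and 0.52 ± 0.28 (adjusted p = 0.486, edgeR), which turned to -0.0072 without both. For the H2A-H2B chaperones nucleophosmin and nucleolin, Npm1 had -0.08 ± 0.23 (adjusted p = 0.912, edgeR) and Ncl -0.38 ± 0.23 (adjusted p = 0.559, edgeR), and -0.11 and -0.16 without both. The rows left out of the histone set by name were scarce, with at most 4.78 CPM for Hist1h1t and at most 1.89 CPM for Hist1h2ba in any library.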

How the data were processed

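The authors deposited raw counts of reads per gene symbol for 16 libraries, with no normalization. STAR, HTSeq 1.0.0, DESeq2 1.0.19 and mm10 are named per the submitters' processing notes, with no role. The annotation and the strand setting were not given in the sources used here. The 5 summary rows stayed out of totals, and reads in genes made up 8.02% to 20.1% of each column. Diet was tested with edgeR 4.0.16 in R 4.3.3 (two-sided quasi-likelihood F-test, robust, TMM factors, filterByExpr by diet) and Benjamini-Hochberg adjustment over 13149 genes. CPM are counts over a library's gene total, without TMM. The step was tested on simulated data. Alternatives were DESeq2 1.42.0, limma-voom (limma 3.58.1), other scalings and filters, and libraries left out. Exon lengths, 50-base windows and sequences came from GENCODE M21. Named genes were all tested replacement variants, up to 10 of the most abundant tested clustered genes, the 5 histone genes with the smallest p, and 2 of the most abundant of each pathway list. Untested histone genes, H3f3aos and Trim17 were named after values were seen. The histone genes, lists and the comparison without HFD 4 and HFD 8 were chosen with earlier results of these data known. The design gives 8 mice per diet. The 56 pairs of libraries within a diet had chi-square values of 12.7 to 172 per degree of freedom, and none was taken as 1 library deposited again.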

Additional observations from a re-analysis of the deposited data

Results flagged for a closer look

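H2afb1 in HFD 8 stood far above the other libraries of its diet, with 294.5 CPM against 4.95 to 20.2 CPM in the other 7 HFD libraries. It was the single such value in 40 groups of 8 libraries examined. Chance flags about 1 group in 20, so 1 flag in 40 groups is not above that rate. The gene's log2 fold change, HFD over CD, was 1.63 with HFD 8 and -0.62 without it. Late spermatid markers were highest in the same library, at 53422 CPM. HFD 4, the next in those markers at 20955 CPM, had 8.50 CPM of H2afb1. What set the value of HFD 8 was not tested.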

How the results depend on the processing

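Across 26 alternatives for the 17 tested histone genes, 0 of 442 adjusted p passed the threshold, and the lowest was 0.172. Over all genes, DESeq2 called 1 gene and each other alternative 0. Of the 17 genes, 6 kept the sign of their log2 fold change throughout. Signs turned in the others as follows, HFD over CD. Without HFD 4 and HFD 8: H2afb1 -0.60, H2afj 0.14, H2afx 0.0394, H2afz -0.0095, H3f3b -0.12, Hist1h2be 0.37, Hist1h2bp -0.13, Hist1h4d 0.14, Hist2h2be 0.0506 and Hist3h2a 0.20. Under limma-voom: H2afb1 -0.16, H2afj 0.0226, H3f3b -0.0306, Hist1h2bc 0.0245, Hist1h2be 0.24, Hist1h4d 0.17, Hist2h2be 0.13 and Hist3h2a 0.11. Under DESeq2, H2afb1 was -0.55. Scaled to gene totals, H3f3b was -0.0284 and Hist1h2be 0.0093, and with RLE factors Hist1h2be was 0.0020. With no filter beyond 1 count, H2afz was -0.0020 and H3f3b -0.0267, and with 1 CPM in 8 libraries Hist1h2be was 0.0036. The cause was not tested. Leaving out 1 library at a time gave ranges of -0.62 to 1.84 for H2afb1, -0.0815 to 0.0998 for H2afz, -0.11 to 0.13 for H3f3b, -0.22 to 0.18 for Hist1h2be, -0.16 to 0.20 for Hist1h4d, -0.29 to 0.0113 for Hist2h2be and -0.20 to 0.22 for Hist3h2a. The title numbers gave no clear pairing of the libraries. Correlations of same-numbered libraries ran from -0.40 to 0.61, with 4 of 8 over 0.1. Of the 8 HFD libraries, 2 correlated best with the CD library of their own number. These values cannot exclude a pairing. With the replicate block, 0 genes were called, 314 had an unadjusted p under 0.05 against 1482 without it, the clustered median was -0.29 and the replacement median -0.0017, and H2afz was -0.0014, H3f3b -0.0017 and Hist1h4d 0.0759. The limma-voom clustered median was 0.12. Of the 61 histone genes that did not pass the filter, 12 were at 0 throughout; the part of depth in this was not tested. The level of H2afb1 without HFD 8 and the 3′ UTR shares without Hist1h2bc were chosen after seeing the data.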
